A study of Rattus norvegicus with 28 samples.

Results

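The transcripts of 5 genes were followed through rat INS-1 cells: Ppargc1a and Ppargc1b, which encode the coactivators PGC-1α and PGC-1β, Esrra and Nrf1, which encode DNA-binding factors that the coactivators work through, and Tfam, which encodes a mitochondrial DNA-binding protein. They were taken by symbol from the deposited table, where each of the 5 has 1 transcript, among 17455 symbols in all. All 5 had a mean of at least 1 TPM (a level scaled for transcript length and for the total of the library) and so were among the 10275 genes tested. INS-1 is an insulinoma line of pancreatic beta cells. The cells were unedited (WT) or carried a CRISPR knock-in of the S983A substitution, serine to alanine, in Med14, part of Mediator, the complex that connects transcription factors with RNA polymerase II. Both genotypes were moved to serum-free medium and then left without agonist (CON), or given 10 nM exendin-4 (Ex-4), which activates the GLP-1 receptor, or 10 µM forskolin (FSK), which activates adenylyl cyclase directly, for 1, 8 or 16 h. This gives 14 groups of 2 libraries. The labels give no time for CON, and the same CON libraries of a genotype serve every time point. Hours in the new medium and hours with agonist therefore cannot be told apart in comparisons with CON. Knock-in cells were sorted as single cells after editing, and the labels do not say which knock-in line a library came from, so genotype and clone cannot be told apart. The study calls its replicates biological and used more than 1 knock-in line, but nothing says whether the libraries of a group are separate cultures, so p-values measure the spread between these libraries, which may be in part technical. A substitution of 1 residue cannot be checked from transcript levels.

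PGC-1α and PGC-1β bind no DNA on their own. They dock on nuclear receptors and other factors and bring in acetyltransferases and Mediator. In liver and muscle, cAMP and CREB switch on Ppargc1a, and its product raises the genes of respiration and, in liver, of gluconeogenesis. ERRα, the product of Esrra, is both a partner of PGC-1α and one of its targets. NRF1 binds promoters of many respiratory chain genes and of Tfam, and TFAM packages mitochondrial DNA and starts its transcription.

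The promoters of Ppargc1a and Tfam are shown because these genes moved in opposite directions after FSK in WT cells and because each window holds one of the searched motifs. Both are from RefSeq on build GRCr8 and run 5′ to 3′ from 250 bases before to 50 bases after a transcript start, with the motif matches in capitals. The Ppargc1a window is chr14:63634058-63634357 on the plus strand and the Tfam window is chr20:17355123-17355422 on the plus strand.
Ppargc1a: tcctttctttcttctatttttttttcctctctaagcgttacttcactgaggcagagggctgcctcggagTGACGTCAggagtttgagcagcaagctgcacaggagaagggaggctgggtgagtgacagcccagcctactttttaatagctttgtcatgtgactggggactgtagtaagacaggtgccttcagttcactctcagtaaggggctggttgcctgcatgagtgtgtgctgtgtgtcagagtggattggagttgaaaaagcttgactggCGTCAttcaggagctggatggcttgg
Tfam: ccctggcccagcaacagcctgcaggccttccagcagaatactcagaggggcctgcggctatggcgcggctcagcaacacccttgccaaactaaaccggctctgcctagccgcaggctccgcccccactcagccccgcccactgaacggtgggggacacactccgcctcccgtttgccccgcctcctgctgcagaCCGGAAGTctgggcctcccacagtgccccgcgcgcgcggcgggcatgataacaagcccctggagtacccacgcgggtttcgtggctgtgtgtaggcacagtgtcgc
The Ppargc1a window holds the full cAMP response element TGACGTCA from -181 to -174, and its short core TGACG again on the minus strand from 25 to 29. The full element contains the core on both strands, and the share given for the core includes such overlaps. In the Tfam window the ETS motif CCGGAAGT, which NRF-2 can bind, lies from -56 to -49. Both strands of all 27457 promoters of the same length were searched, and 1.91% held TGACGTCA, 22% TGACG and 4.01% CCGGAAGT. TCAAGGTCA, an element of oestrogen-related receptors found in 0.412% of the promoters, and CGCATGCG, the NRF1 core found in 1.81%, matched none of the 5 windows, and the windows of Ppargc1b, Esrra and Nrf1 held none of the 5 motifs. The Ppargc1a window belongs to 1 start within a RefSeq gene that spans 655711 bases, and the table's single Ppargc1a transcript (NM_031347, build rn6, chr14:63095827-63186819, exons of 2415 bases) does not separate the starts. In rn6 the other transcripts were NM_176075 of Ppargc1b at chr18:56626734-56728185, NM_001008511 of Esrra at chr1:222168729-222178725, NM_001100708 of Nrf1 at chr4:57336665-57436885 and NM_031326 of Tfam at chr20:18594057-18606106.

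The libraries held 42183630 to 56755944 fragments on rat genes, apart from 1 of the S983A 8 h FSK libraries with 91794163. Replicates correlated at 0.998 to 0.999 across genes. Beta cell transcripts were abundant, with Ins1 at 33715.747 TPM or more and Glp1r, the receptor for Ex-4, at 61.0 to 104 TPM. Sst, Ppy, Ghrl, Ptprc, Pecam1 and Col1a1 reached at most 0.171 TPM and Cpa1 and Krt19 at most 0.925, while Prss1 and Amy2a3 were listed at 0 throughout. Gcg, the glucagon gene of alpha cells, ran from 6.09 to 1345 TPM. Its group means were higher at 8 h of FSK than at CON, as those of Ppargc1a were, going from 167 to 1285 TPM in WT and from 6.32 to 106 TPM in S983A. WT CON held more Gcg than the S983A 8 h and 16 h FSK groups (106 and 107 TPM), and less Ppargc1a. The part of Gcg in the results was not tested. In bulk RNA, fewer cells with a transcript and less of it per cell cannot be told apart.

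Averaged over all libraries, Tfam was the most abundant of the 5 at 131 TPM, followed by Esrra at 49.5, Nrf1 at 20.7, Ppargc1a at 14.6 and Ppargc1b at 1.07 TPM. Ppargc1b therefore lay just over the 1 TPM limit, at percentile 0.438 of the tested genes, and its libraries gave only 56 to 143 fragments. The widest range across groups belonged to Ppargc1a, whose highest group mean was 17.4 times its lowest. That ratio was 4.04 for Esrra, 2.25 for Ppargc1b, 1.74 for Tfam and 1.67 for Nrf1.

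**Figure D1:**
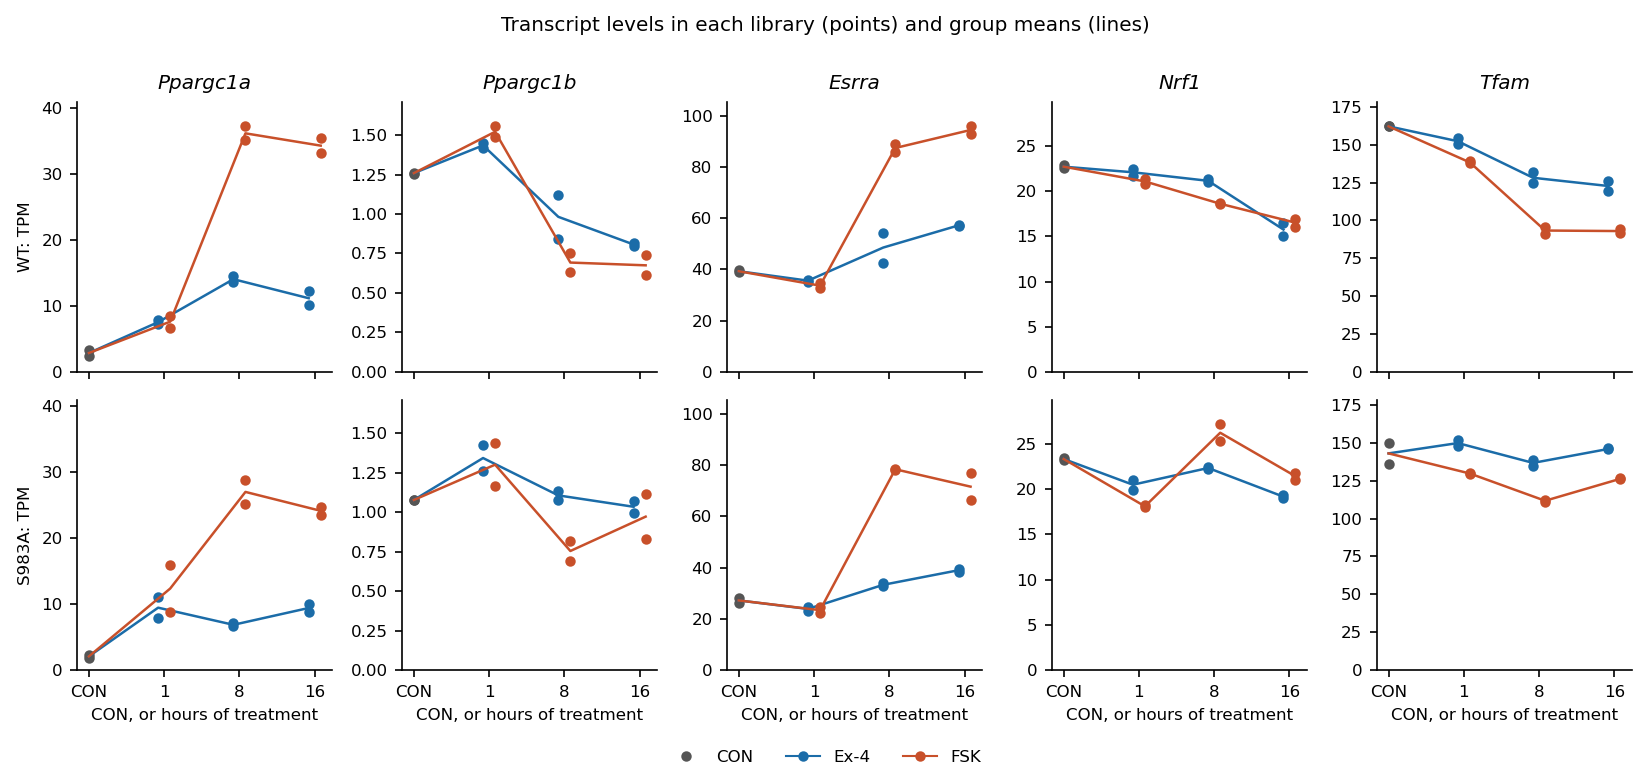
Level in TPM of the 5 genes in each library (points) and as group means (lines), for WT (top) and S983A (bottom) at CON and after 1, 8 and 16 h of Ex-4 or FSK; the time axis is not to scale. Ppargc1a climbs to 37.3 TPM and Esrra to 95.9 TPM with FSK, while WT Tfam goes down from 162 to between 91.2 and 95.4 TPM.

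Ppargc1a, the coactivator gene known for its induction by cAMP, rose with both agonists, at every time and in both genotypes. In WT CON it was at 3.29 and 2.46 TPM. After 1 h it was at 7.83 and 7.27 TPM with Ex-4 and at 8.52 and 6.73 TPM with FSK, so all 4 libraries lay above both controls and the agonists overlapped. At 8 h the agonists had separated, with 14.5 and 13.6 TPM in Ex-4 and 37.3 and 35.1 TPM in FSK. At 16 h the levels were 10.1 and 12.3 TPM with Ex-4 and 33.1 and 35.5 TPM with FSK, again without overlap between the agonists. In ratios of mean TPM to CON, Ex-4 gave 2.63-fold, 4.90-fold and 3.89-fold at 1, 8 and 16 h, and FSK gave 2.66-fold, 12.6-fold and 12-fold. On the log2(TPM + 1) scale, which understates changes of low transcripts, limma gave differences of 1.15, 1.97 and 1.66 for Ex-4 and 1.16, 3.27 and 3.20 for FSK, each ± 0.17 (SE), with adjusted p from 8.3e-06 at 1 h of Ex-4 to 1.6e-15 at 8 h of FSK. A gene was called changed at an adjusted p under 0.05 and a difference over 1.5-fold, and Ppargc1a was called in all 6 comparisons, which share the same 2 CON libraries.

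In S983A cells, Ppargc1a began at 1.89 and 2.27 TPM. After 1 h of Ex-4 it was at 11 and 7.91 TPM, and 1 h of FSK gave 8.81 and 15.9 TPM, the widest spread between replicates of the gene. With Ex-4 it then stood at 7.08 and 6.65 TPM at 8 h and at 10.1 and 8.73 TPM at 16 h. With FSK it reached 28.8 and 25.2 TPM at 8 h and 23.5 and 24.7 TPM at 16 h. All 12 treated S983A libraries lay above both S983A controls, and the mean ratios to CON were 4.56-fold, 3.31-fold and 4.54-fold for Ex-4 and 5.96-fold, 13-fold and 11.6-fold for FSK. The limma differences were 1.75, 1.36 and 1.76 for Ex-4 and 2.07, 3.19 and 3.03 for FSK (SE 0.17), and all 6 were called, with the highest adjusted p at 2.5e-07. The Ex-4 time course thus had its highest mean at 8 h in WT (14.1 TPM) and its lowest treated mean at 8 h in S983A (6.86 TPM).

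The order of the 14 Ppargc1a groups had the 4 FSK groups of 8 and 16 h on top, at means of 36.2, 34.3, 27 and 24.1 TPM. Only the WT 8 h and 16 h groups overlapped among these 4. From WT 8 h Ex-4 (14.1 TPM) down to S983A 16 h Ex-4 (9.41 TPM), each group overlapped its next neighbour. WT CON (2.87 TPM) and S983A CON (2.075 TPM) were last and did not overlap each other.

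Ppargc1b, whose product shares many partners with PGC-1α, did not follow Ppargc1a. Its WT levels were 1.26 and 1.26 TPM in CON, 1.42 and 1.45 after 1 h of Ex-4 and 1.56 and 1.49 after 1 h of FSK. At 8 h they were 0.844 and 1.12 TPM with Ex-4 and 0.634 and 0.751 TPM with FSK, and at 16 h they were 0.797 and 0.817 TPM with Ex-4 and 0.738 and 0.612 TPM with FSK. All 8 late WT libraries lay below both controls. With FSK the ratio of means to CON was 0.55 at 8 h and 0.537 at 16 h, but the limma differences of -0.42 and -0.43 (SE 0.09, adjusted p = 1.7e-04 and 1.2e-04) stayed under the 1.5-fold minimum on the log2(TPM + 1) scale, so neither was called. With a pseudocount of 0.1 TPM in place of 1 TPM both were called, at -0.78 and -0.82. On rebuilt read counts, edgeR (-0.72) and DESeq2 with its own size factors (-0.69) called the 16 h fall. DESeq2 with size factors from the ERCC spike-in RNAs called the 8 h fall (-0.85). Centring each library's log2(TPM + 1) on its median left -0.03 at 8 h, on a scale that compresses changes near 1 TPM. In S983A, Ppargc1b was at 1.080 and 1.074 TPM in CON and between 0.69 and 1.44 TPM in the treated groups, with the lowest mean, 0.754 TPM, at 8 h of FSK. In limma on log2(TPM + 1), none of the 12 treatment differences of Ppargc1b was called. DESeq2 with ERCC size factors called the S983A fall at 8 h of FSK (-0.63).

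The balance of the coactivator transcripts moved accordingly. The ratio of Ppargc1a to Ppargc1b TPM, a ratio of levels per length, was 2.60 and 1.96 in the WT CON libraries and 1.75 and 2.11 in S983A CON. At 8 h of FSK it was 58.8 and 46.7 in WT and 35.2 and 36.6 in S983A. With 8 h of Ex-4 it was 17.2 and 12.2 in WT and 6.59 and 5.85 in S983A. Both CON groups were the lowest of the 14, and the WT and S983A libraries did not overlap at 8 h with either agonist. The ratio is given as a description, and its low denominator rests on the 56 to 143 fragments of Ppargc1b.

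**Figure D2:**
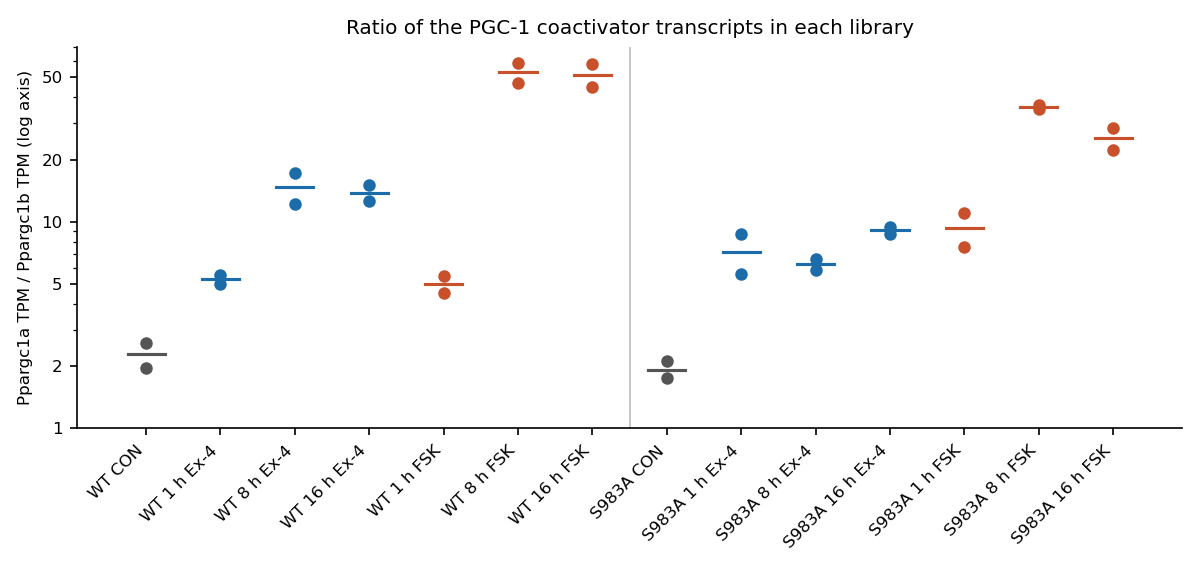
Ratio of Ppargc1a to Ppargc1b TPM in each library (points) with the group mean (bars), on a log axis, for the 14 groups. The 4 CON libraries lie between 1.75 and 2.60 and the 4 WT FSK libraries of 8 and 16 h between 44.9 and 58.8.

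Esrra, the gene of the orphan receptor ERRα, rose with FSK from 8 h on and in both genotypes. WT CON libraries were at 39.7 and 39.0 TPM. After 1 h of either agonist WT levels lay between 32.7 and 36.1 TPM, below both controls. FSK then gave 88.9 and 85.9 TPM at 8 h and 95.9 and 93.0 TPM at 16 h, above every other WT library. The differences were 1.13 and 1.24 on the log2(TPM + 1) scale (limma, SE 0.08, adjusted p = 4.3e-13 and 9.0e-14), which is 2.22-fold and 2.40-fold in mean TPM. With Ex-4, WT Esrra was at 54.4 and 42.7 TPM at 8 h and at 57.0 and 57.4 TPM at 16 h, all above CON. The 16 h difference of 0.53 ± 0.08 (SE) had an adjusted p of 1.4e-06 in limma but missed the 1.5-fold minimum, while it passed at 0.72 after median centring and at 0.81 after scaling on the ERCC spike-in RNAs, put into each sample per mass of RNA.

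S983A cells started lower for Esrra, at 26.1 and 28.3 TPM in CON. FSK gave 78.7 and 78.1 TPM at 8 h and 76.8 and 66.4 TPM at 16 h, differences of 1.495 and 1.36 (SE 0.08, limma adjusted p = 1.2e-15 and 1.5e-14) or 2.88-fold and 2.63-fold in mean TPM. The S983A FSK levels lay below the WT FSK levels of the same time without overlap. Ex-4 gave 32.7 and 33.9 TPM at 8 h and 38.4 and 39.5 TPM at 16 h, and the differences of 0.28 and 0.51 were not called. The mean after 16 h of Ex-4 in S983A, 39.0 TPM, was next to that of WT CON, 39.3 TPM, in the order of groups, and their libraries overlapped.

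Tfam, the packaging factor of mitochondrial DNA, fell with FSK in WT. Its WT levels were 162 and 162 TPM in CON and 139 and 138 TPM after 1 h of FSK. They were 91.2 and 95.4 TPM at 8 h and 91.5 and 94.4 TPM at 16 h of FSK, below every other library of the series. These are ratios of 0.576 and 0.574 to CON, with limma differences of -0.79 and -0.80 (SE 0.04, adjusted p = 2.6e-15 and 3.1e-15). The median of all tested genes was also lower, by -0.34 at 8 h and -0.20 at 16 h, on this scale in which a library's levels share a fixed total. With each library centred on its median, Tfam was at -0.40 at 8 h and -0.55 at 16 h and neither was called, and with ERCC scaling, which put the median of all genes at 0.12 at 16 h, the 16 h value was -0.45 and was not called.

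With Ex-4, WT Tfam was at 150 and 154 TPM at 1 h, 132 and 125 TPM at 8 h and 126 and 119 TPM at 16 h, below both controls in each case, with limma differences of -0.09, -0.34 and -0.40 that were not called. S983A libraries were at 149.9 and 136 TPM in CON, which is the wider of the 2 CON spreads. They went to 111 and 112 TPM at 8 h and 127 and 126 TPM at 16 h of FSK, and stayed between 135 and 152 TPM with Ex-4. None of the S983A differences of Tfam was called, the lowest being -0.35 ± 0.04 (SE) at 8 h of FSK.

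Nrf1, which encodes nuclear respiratory factor 1, was the flattest of the 5. WT libraries were at 22.9 and 22.6 TPM in CON, 18.6 and 18.7 TPM at 8 h of FSK and 16.1 and 16.9 TPM at 16 h of FSK. With 16 h of Ex-4 they were at 15.03 and 16.5 TPM, the lowest group mean of the series. In S983A the levels were 23.4 and 23.3 TPM in CON, and the highest group of the series was S983A 8 h FSK at 25.3 and 27.2 TPM. No Nrf1 difference from CON was called, and the widest were -0.50 at 16 h of Ex-4 in WT, -0.44 at 16 h of FSK in WT and, in S983A, -0.35 at 1 h of FSK (limma, SE 0.05, adjusted p = 7.3e-09, 2.8e-08 and 3.1e-06). The WT 8 h FSK value of -0.27 became 0.12 after median centring, so no direction is given for it.

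**Figure D3:**
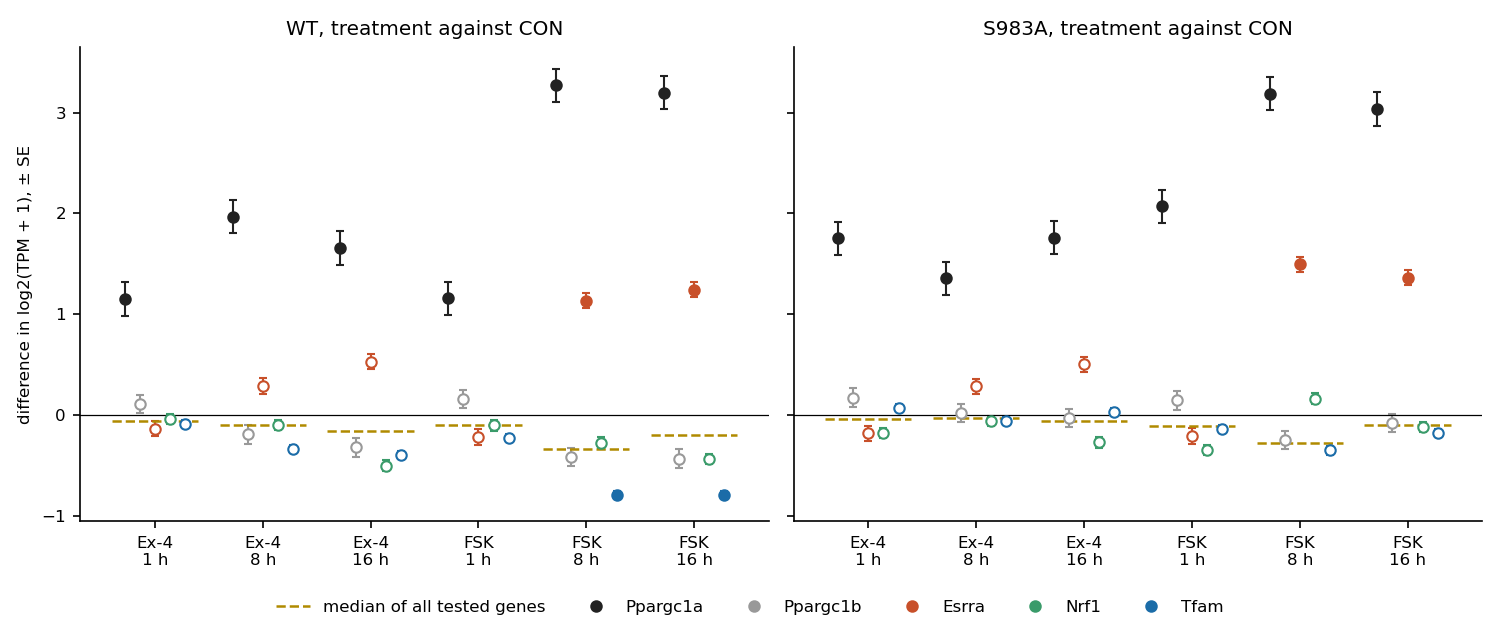
Difference of each treatment from CON of the same genotype in log2(TPM + 1), with its SE from limma, for the 5 genes in WT and S983A. Filled points were called (adjusted p under 0.05 and over 1.5-fold), open points were not, and dashed lines mark the median of all 10275 tested genes; Ppargc1a is filled in all 12 columns, Esrra in the 4 FSK columns of 8 and 16 h, and Tfam in the 2 WT ones.

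Read against the whole transcriptome, the members' counts were as follows. With Ex-4 in WT, 1 of the 5 genes was called at each of 1, 8 and 16 h, where 2.87%, 9.6% and 11.8% of all tested genes were called. With Ex-4 in S983A it was again 1 of 5 at each time, beside 3.04%, 6.3% and 11.9% of all genes. In each of these 6 comparisons the called gene was Ppargc1a. FSK in WT gave 1, 3 and 3 of 5, where the background was 7.47%, 43.6% and 34.5%. FSK in S983A gave 1, 2 and 2 of 5, beside 10.4%, 46.1% and 33.3%. At 8 and 16 h of FSK so many genes of the whole table were called that 2 or 3 of 5 is no result about the members as a group.

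The agonists differed for Ppargc1a and Esrra from 8 h on. At 1 h none of the 5 genes was called between Ex-4 and FSK, in WT, where 1.79% of all genes were called, or in S983A, where 3.03% were. The limma difference of Ppargc1a in WT at 1 h was -0.01 ± 0.17 (SE). At 8 h, Ppargc1a was lower with Ex-4 than with FSK with limma differences of -1.30 in WT and -1.83 in S983A, and at 16 h of -1.54 and -1.27. Esrra was lower with Ex-4 as well, by -0.85 and -0.71 in WT and -1.21 and -0.86 in S983A. These 2 genes made 2 of 5 called at 8 h (28.1% of all genes in WT and 36.5% in S983A) and 2 of 5 at 16 h (18.7% and 16.3%). For Tfam the Ex-4 minus FSK values at 8 h were 0.45 in WT and 0.29 in S983A, beside 0.23 and 0.25 for the median of all genes, and neither was called. They were 0.62 (called) and 0.39 with ERCC scaling but 0.19 and -0.02 with median centring, so no direction is given for S983A. The agents were given at 1 dose each, so the comparison holds for those doses.

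Between the genotypes at CON, 0 of the 5 genes were called, where 19.4% of all genes were called. Esrra was nearest, with a difference of -0.52 ± 0.08 (SE, limma adjusted p = 1.5e-06), 0.692 times the WT mean, and the libraries of the 2 genotypes did not overlap. The median difference of the 50 tested genes nearest to Esrra on its chromosome was -0.07. Tfam was at -0.18 ± 0.04 (adjusted p = 4.1e-04), Ppargc1a at -0.33 ± 0.17 (adjusted p = 0.086), Ppargc1b at -0.12 and Nrf1 at 0.04. At an unadjusted limma p under 0.05, 2 of the 5 differed, a count without the share of all genes beside it and so no result about the members. No alternative with the 1.5-fold minimum called any of the 5.

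Whether a response differed between the genotypes was tested as the S983A response minus the WT response. For Ex-4, 0 of the 5 genes were called at 1, 8 or 16 h, against 0.672%, 2.77% and 7.24% of all genes. Of these 15 differences, 7 had an unadjusted limma p under 0.05. The share of all genes under that limit is not given, so the count is no result about the members. For Ppargc1a the S983A minus WT value was 0.60 ± 0.23 (SE) at 1 h and -0.61 ± 0.23 at 8 h, with limma adjusted p of 0.36 and 0.07. The 8 h value was called after median centring, at -0.70, and after ERCC scaling, at -0.66, and the 1 h value was called after ERCC scaling, at 0.64. For Tfam the S983A minus WT values were 0.16, 0.27 and 0.43 at 1, 8 and 16 h (limma adjusted p = 0.31, 0.0015 and 2.1e-06), none of them called.

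For FSK the counts at 1, 8 and 16 h were 1, 0 and 1 of the 5 genes, and both calls were higher in S983A, as were 0.876%, 7.65% and 10.6% of all tested genes. In either direction the background was 90 genes higher and 79 lower at 1 h, 786 and 638 at 8 h, and 1091 and 658 at 16 h, of 10275. The 1 h call was Ppargc1a, whose response was larger in S983A by 0.91 ± 0.23 (SE, limma adjusted p = 0.017). It rests on the S983A library at 15.9 TPM, since without that library the difference was 0.52 and was not called, and it was also lost without WT CON replicate 1 (0.76), WT 1 h FSK replicate 2 (0.76) or S983A CON replicate 1 (0.82). The value stayed at 0.91 but missed the threshold with no filter on the mean (adjusted p = 0.081) and in the limma fit on the contrast's libraries (adjusted p = 0.099), and with DESeq2 on ERCC size factors it was 0.95 (adjusted p = 0.086). The 16 h call was Tfam, which fell in WT and was 0.62 ± 0.06 higher in its S983A response (adjusted p = 2.1e-09). With median centring or ERCC scaling it was 0.53, and without S983A CON replicate 2 it was 0.55, and in these it was not called. At 8 h the S983A minus WT values of Esrra (0.36), Nrf1 (0.44) and Tfam (0.44) were below the fold minimum and not called. Their limma adjusted p were 0.0061, 2.2e-05 and 7.5e-07. At 16 h those of Nrf1 (0.32) and Ppargc1b (0.35) were not called either, with limma adjusted p of 0.00061 and 0.0215. The Ppargc1a differences at 8 and 16 h of FSK were -0.08 and -0.16 (SE 0.23).

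**Figure D4:**
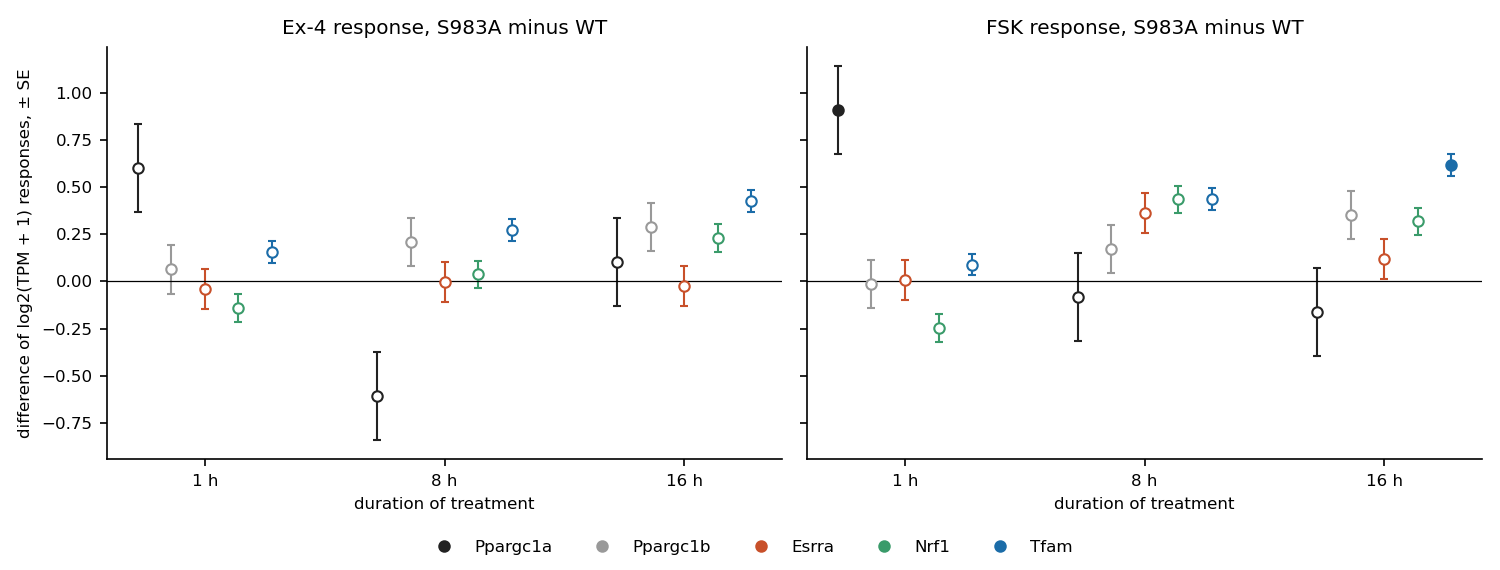
Difference between the S983A and the WT response in log2(TPM + 1), with its SE from limma, after 1, 8 and 16 h of Ex-4 or FSK. Filled points were called; these are Ppargc1a at 1 h of FSK (0.91) and Tfam at 16 h of FSK (0.62).

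Across the 14 group means of log2(TPM + 1), Ppargc1a and Esrra correlated at 0.78 and Ppargc1b and Tfam at 0.83, while Ppargc1a and Tfam were at -0.85 and Ppargc1b and Esrra at -0.85. Nrf1 was between -0.34 and 0.41 with the other 4. The groups share libraries of 1 experiment and a common scale, and these values are descriptions. Among 9429 candidate genes, those whose group means ran closest to Ppargc1a were Eif1, a translation initiation factor (0.96), Ccnd3, cyclin D3 (0.96), and Kcnk1, a potassium channel (0.95). For Esrra they were Timm8b, a mitochondrial import chaperone (0.98), Nudt19 (0.98) and Atp5mc3, a subunit of ATP synthase (0.97). Tfam had Clns1a (0.97), Ctnnbl1 (0.95) and Hdgfl3 (0.95), Ppargc1b had Hnrnpu (0.95), Snn (0.94) and Fdxr (0.93), and Nrf1 had Exo1 (0.90), Las1l (0.88) and Snrpd1 (0.88).

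The wider pathway was read from 5 gene lists. Of the coactivators' partners, 12 of 16 in the table were tested, and at 16 h of FSK 1 was higher and 2 lower in both genotypes, which is 3 of 12 where 34.5% of all genes in WT and 33.3% in S983A were called. The risers were Ppard, a fatty acid receptor, in WT (0.75) and Pprc1, the third member of the PGC-1 family, in S983A (0.89). Pprc1 was at 38.7 ± 0.96 TPM (SD, n = 2) in WT CON and 43.1 ± 1.40 after 16 h of FSK, and at 32.6 ± 0.51 and 61.3 ± 0.84 TPM in S983A. Foxo1, a forkhead factor, and Hnf4a, a nuclear receptor, fell in both, with limma differences of -1.11 and -0.74 in WT and -0.72 and -1.01 in S983A. The Hnf4a fall at 16 h of FSK in WT was not called under any of 5 other scalings, at -0.57 to -0.38, and the S983A fall of Foxo1 was called under 2 of the 5, at -0.67 to -0.47. On the TPM scale none of the 12 was called at 16 h of Ex-4, beside 11.8% of all genes in WT and 11.9% in S983A. Between the genotypes at CON, where 19.4% of all genes were called, Hnf4a was the one called (-0.69). That call was lost under both ERCC scalings, while edgeR and DESeq2 each called 1 partner higher and 1 lower there.

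Of the 15 tested regulators of PGC-1, Camk4, a calcium and calmodulin dependent kinase, rose at 16 h with both agonists and in both genotypes. Camk4 was at 12.2 ± 1.07 TPM (SD, n = 2) in WT CON, 120 ± 2.44 at 8 h of FSK and 39.0 ± 1.79 at 16 h, and in S983A at 6.91 ± 0.41, 68.4 ± 2.10 and 13.4 ± 0.33 TPM. Camk4 levels at 8 and 16 h of FSK did not overlap in either genotype. Creb1, the cAMP response factor, fell in WT at 16 h of FSK (-0.68, limma adjusted p = 6.5e-05), from 6.06 ± 0.03 to 3.43 ± 0.45 TPM, and so did Kat2a, the GCN5 acetyltransferase (-0.73). The Kat2a fall was lost under all 5 other scalings and the Creb1 fall under median centring and both ERCC scalings. Prkaa2, an AMPK subunit, fell in WT at 16 h of Ex-4 (-0.94). Camk4 (-0.74) and Rnf34 (-0.73) were among 3 of the 15 regulators that were lower in S983A at CON, where 19.4% of all genes were called. With median centring, ERCC scaling, edgeR or DESeq2 on its own size factors, 2 were lower. DESeq2 on ERCC size factors called 1 higher and 1 lower.

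Among 14 tested genes of mitochondrial DNA and RNA upkeep, 7 were lower and 0 higher at 8 h of FSK in WT, and 4 were lower and 1 higher in S983A. Beside these, 43.6% and 46.1% of all genes were called in either direction, and 3579 and 3550 of 10275 were lower. Counts at 8 h are given for this list only. The median of the list was -0.57 and -0.38 beside -0.34 and -0.28 over all genes. At 16 h of FSK, 1 was higher and 1 lower in each genotype, beside 34.5% and 33.3% of all genes called in WT and S983A. Lonp1, a mitochondrial protease that degrades TFAM, went from 129 ± 3.63 to 196 ± 1.07 TPM (SD, n = 2) in WT and from 125 ± 4.83 to 373 ± 6.62 TPM in S983A. Mgme1, an exonuclease of mitochondrial DNA, went from 24.2 ± 0.65 to 9.68 ± 0.54 TPM in WT and from 23.8 ± 1.39 to 14.96 ± 0.47 TPM in S983A. The Lonp1 rises held under all 5 other scalings, while the S983A fall of Mgme1 held under none. The count of genes lower at 8 h of FSK was 7 in WT and 5 in S983A with ERCC scaling but 3 and 2 with median centring. With 16 h of Ex-4, Mgme1 fell in WT (-0.72), which only edgeR called among the other scalings, and Lonp1 rose in S983A (0.78).

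Known targets of PGC-1 and ERR were 22 in the table and 19 tested. At 16 h of FSK, 3 rose and 1 fell in each genotype, 4 of 19 beside 34.5% and 33.3% of all genes called, with list medians of 0.28 in WT and 0.18 in S983A beside -0.20 and -0.10 over all genes. These counts depend on the scaling, with 7 and 6 higher after median centring and 10 and 6 higher after ERCC scaling, and 1 lower in each case. EdgeR and DESeq2 on its own size factors each had 5 targets higher in WT and 4 in S983A. DESeq2 on ERCC size factors had 11 and 6. The background moved too. In limma, 1062 of the 10275 tested genes were higher in WT and 1255 in S983A. Median centring made these 1723 and 1755, and ERCC scaling 2061 and 2159. Cycs, which encodes cytochrome c, went from 131 ± 4.76 to 284 ± 0.30 TPM (SD, n = 2) in WT and from 118 ± 5.12 to 299.8 ± 2.53 TPM in S983A. Sod2, the mitochondrial superoxide dismutase, rose in S983A (1.09 on the log2 scale). Slc2a4, the insulin-responsive glucose transporter, fell in both (-2.15 and -1.05) and was also lower in S983A at CON (-2.08), at 3.07 ± 0.14 against 16.3 ± 0.15 TPM. With 16 h of Ex-4, 0 rose and Slc2a4 alone fell in both genotypes on the TPM scale, beside 11.8% and 11.9% of all genes called. In WT 1 was higher with median centring, 3 with ERCC scaling and 4 with DESeq2 on ERCC size factors. Of the 10275 tested genes, 363 were higher there in limma, 665 with median centring and 862 with ERCC scaling. Sdhb, a subunit of succinate dehydrogenase, was the target higher in S983A at CON (0.90), where 19.4% of all genes were called.

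Of 10 tested genes of mitochondrial fission, fusion and mitophagy, 1 rose and 3 fell at 16 h of FSK in WT, and 3 rose and 3 fell in S983A, where 34.5% and 33.3% of all genes were called. Bnip3, a mitophagy receptor, rose in both (1.27 and 0.92), and Mfn2, a fusion GTPase, rose in S983A (0.75). Pink1, the mitophagy kinase, fell in both (-1.53 and -2.13), and Fundc1, another mitophagy receptor, did too (-0.74 and -0.96), though its WT fall was called under only 1 of 5 other scalings. With median centring the counts were 1 higher and 1 lower in WT and 5 higher and 2 lower in S983A, and with ERCC scaling 2 higher and 1 lower in WT and 7 higher and 2 lower in S983A. At 16 h of Ex-4, 11.8% of all genes were called in WT and 11.9% in S983A, and at CON 19.4% were called between the genotypes. Pink1 was the only one of the 10 called at 16 h of Ex-4 (-0.65 in WT and -0.85 in S983A) and at CON, where S983A was higher by 1.53. Its WT fall with Ex-4 was not called under any of the 5 other scalings.

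**Figure D5:**
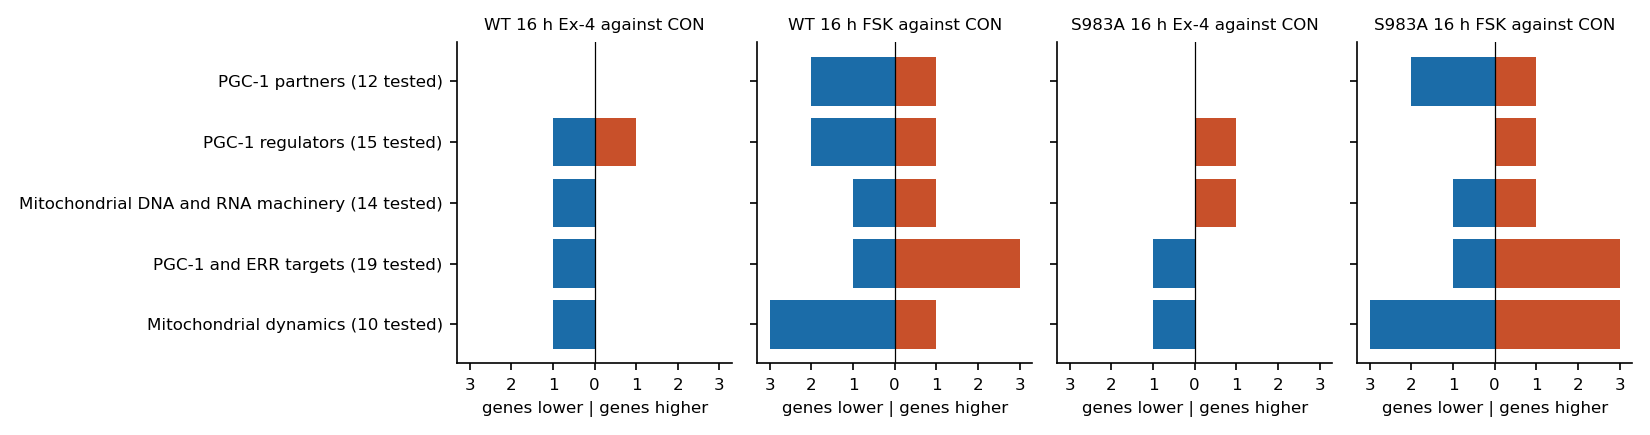
Number of genes called lower (left, blue) and higher (right, orange) at 16 h of Ex-4 or FSK against CON in WT and S983A, for 5 gene lists around the PGC-1 coactivators. At 16 h of FSK the list of PGC-1 and ERR targets has 3 genes higher and 1 lower in both genotypes on the TPM scale. It has at least 6 higher with median centring or ERCC scaling, under which more of all tested genes were also called higher. With edgeR or DESeq2 on its own size factors it has 5 higher in WT and 4 in S983A.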

How the data were processed

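Bulk RNA-seq was made from 28 libraries of INS-1 cells, 2 for each of 14 groups, which were taken from the sample titles. The authors mapped the reads with STAR 2.5.3a on rn6 plus the ERCC spike-ins and derived TPM for each RefSeq transcript with HOMER 4.11.1. No rescaling was applied here to the deposited TPM. The deposited counts used here are those of the 92 ERCC sequences. Of 19131 transcripts, 1676 were dropped in favour of the transcript of the same symbol with the highest mean. Log2(TPM + 1) was fitted with limma 3.58.1 (trend) in R 4.3.3 over all 28 libraries with 14 group means, for the 10275 genes whose mean reached 1 TPM. The Benjamini-Hochberg method adjusted the two-sided p-values of each contrast, and calls needed an adjusted p under 0.05 and over 1.5-fold. Limma was used in place of the authors' DESeq2 1.24.0 with ERCC size factors because the counts used here cover the ERCC sequences only.

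Read counts of genes were rebuilt from the product of TPM and exon length, with the ERCC counts setting the scale of each library. Among 59269 rebuilt values below 1000 reads, 100% fell within 0.05 of a whole read plus an allowance for the rounding of the deposited TPM. By chance 16.4% would fall within that tolerance. The largest difference from a deposited ERCC count was 0.0663. On these rebuilt counts edgeR 4.0.16 called 1624 genes higher and 1958 lower at 16 h of FSK in WT, against 1062 and 2478 in limma. ERCC sequences held 0.671% to 1.03% of the fragments and measure RNA per mass, not per cell.

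The 5 members and the gene lists were chosen with earlier results of these data known. Genes of a list were named by a rule: at most 2 called rises and 2 called falls per list at 16 h of each agonist and at CON between genotypes. A gene that the rule picked is not reported here. Alternatives were a pseudocount of 0.1 TPM, no filter, a mean of at least 5 TPM, no fold minimum, median centring, ERCC scaling, a fit on the contrast's libraries, the replicate number as a block, each library left out, edgeR, and DESeq2 1.42.0 with its own or ERCC size factors. Counts of the gene lists under median centring, ERCC scaling, edgeR and DESeq2 were added after seeing the data.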

Additional observations from a re-analysis of the deposited data

Results flagged for a closer look

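The Ppargc1a response to 1 h of FSK was called different between the genotypes, by 0.913 on the log2(TPM + 1) scale (S983A minus WT, limma interaction, SE 0.23, adjusted p = 0.017), with S983A libraries at 8.81 and 15.9 TPM and WT libraries at 8.52 and 6.73 TPM. The call was lost without any 1 of 4 libraries, at 0.52 without the S983A library at 15.9 TPM, and with no filter (adjusted p = 0.081), in the limma fit on the contrast's libraries (adjusted p = 0.099) and with DESeq2 on ERCC size factors (adjusted p = 0.086).

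The Tfam response to 16 h of FSK was called different as well, by 0.619 (SE 0.06, adjusted p = 2.1e-09), with 91.5 and 94.4 TPM in WT against 162 and 162 TPM in its CON, and 127 and 126 TPM in S983A against 149.9 and 136 TPM in its CON. It was under the 1.5-fold minimum, at 0.50 to 0.53, under median centring, ERCC scaling, edgeR and DESeq2 with either set of size factors.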

How the results depend on the processing

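Of 125 differences tested for the 5 genes, 28 were called, and 47 were called in no setting. Over all alternatives, 1205 values left the call as it was, 19 lost it and 69 gained it, mostly without the 1.5-fold minimum, and no call reversed. A difference not called was taken as having no direction. Without the fold minimum, calls went from 3 to 9 for Ex-4 in WT, from 7 to 13 for FSK in WT, from 3 to 7 for Ex-4 in S983A, from 5 to 13 for FSK in S983A, from 0 to 2 at CON, from 0 to 3 and 2 to 8 for the genotype differences in the Ex-4 and FSK responses, and from 4 to 9 and 4 to 11 for Ex-4 against FSK in WT and S983A. The share of all genes called without the fold minimum is not given, so these increases are no result about the members. The genotype differences in the Ex-4 response became 1 call with median centring, 2 with ERCC scaling and 1 in the fit on the contrast's libraries. Those in the FSK response became 1 with no filter, median centring, ERCC scaling, the contrast's libraries or DESeq2 on its own size factors, 0 with DESeq2 on ERCC size factors, and 1 to 2 with each library left out. With edgeR the FSK count stayed at 2, but Tfam (0.52) was replaced by Ppargc1b at 16 h (0.66). The cause of these changes was not tested.

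Ppargc1b is not tested at a mean of at least 5 TPM. The replicate block left the calls at 3 and 7 in WT and 3 and 5 in S983A for Ex-4 and FSK. Deviations of same-numbered libraries correlated at -0.28 to 0.28 over 91 pairs of groups (median 0.003), with 17 over 0.1. Replicate numbers were not treated as batches in the reported fit, and a batch shared by some of the groups was not tested. Depth limits Ppargc1b, at 56 to 143 fragments per library, and intervals from it would cover counting error only.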
